A study of Mus musculus with 117 samples.

Results

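The genes described here are Nodal, Gdf3, Tdgf1, Lefty1, Lefty2 and Fgf4, which encode the secreted factors, co-receptor and inhibitors through which pluripotent mouse cells carry out Nodal signalling, and the FGF ligand those cells make. They were chosen by name and found by their Entrez identifiers (18119, 14562, 21667, 13590, 320202 and 14175), and they are 6 of the 26301 genes in the RNA count table. Nodal and Gdf3 are ligands, Tdgf1 (Cripto) is a co-receptor, Lefty1 and Lefty2 are inhibitors and Fgf4 is a ligand of another pathway, so the 6 are not all ligands of Nodal signalling. RNA was sequenced from 28 libraries in 10 groups of a study on SUMO, a small protein attached to other proteins by the conjugating enzyme Ubc9, and on how its loss bears on the identity of cells.

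The groups without reprogramming factors from fibroblasts were MEF, mouse embryonic fibroblasts (E13.5, passage 1), carrying a hairpin against Ubc9 (shUbc9, 2 libraries) or a control hairpin (shCtrl, 3 libraries). OKSM stands for Oct4, Klf4, Sox2 and Myc, the factors that reprogram fibroblasts, and MEF that had expressed it over 4 days (D4) and over 7 days (D7) formed 4 groups, shUbc9 and shCtrl at each time, with 3 libraries each. OKSM was therefore on in the controls of D4 and D7 as well. iPS cells derived from MEF were sequenced with shUbc9 (3 libraries) and shCtrl (2 libraries), and embryonic stem (ES) cells after an siRNA against Ubc9 (siUbc9) or a control siRNA (siCtrl), with 3 libraries each. Each group of 2 libraries holds replicates 1 and 3. Depletion was thus by hairpin in the MEF, D4, D7 and iPS groups and by siRNA in ES cells, and the labels do not say whether an iPS group is 1 clone or how long Ubc9 had been depleted.

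Nodal is a secreted protein of the TGF-beta family. It binds activin receptors with the help of Tdgf1, acts through Smad2 and Smad3 with Foxh1, and switches on its own gene and those of its inhibitors Lefty1 and Lefty2, so that the pathway feeds back on itself. Gdf3 is a related ligand of pluripotent cells, and Fgf4 is the ligand through which ES cells stimulate their own ERK kinases, a step that readies them to leave the naive pluripotent state.

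The counts summed over genes ran between 11.4 M and 58.8 M reads a library, levels are given as CPM (the usual scaling of counts to library size), and replicates differed by more than sampling noise in every group. The labels do not say whether replicates were separate cultures or animals, so p-values measure the spread between these libraries, which may be technical. Some libraries stood apart within their group. iPS shUbc9 replicate 2 had the lowest depth of all, 11.4 M, and D7 shCtrl replicate 3 had the lowest of its group, 19.8 M.

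In the MEF and D4 groups, 3 libraries carried a trace of pluripotency transcripts that replicate 1 of their group had at 5 counts or fewer. MEF shUbc9 replicate 3 held 34 counts of Tdgf1, 28 of Fgf4, 35 of Dppa5a and 20 of Lin28a, where MEF shUbc9 replicate 1 held 0, 0, 1 and 0. D4 shUbc9 replicates 2 and 3 held 56 and 51 counts of Tdgf1, 69 and 57 of Dppa5a and 24 and 31 of Lin28a, where D4 shUbc9 replicate 1 held 5, 2 and 2. Dppa5a and Lin28a are pluripotency markers and were picked here after their values were seen. Where these transcripts came from was not tested. Fits without D4 shUbc9 replicates 2 and 3, chosen after seeing the data, are given beside the D4 tests, and they assume that the lone depleted library left varies like the other groups.

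The promoters of Nodal, Tdgf1 and Fgf4 are shown because these genes rose together at D7 and the reference table holds a promoter for 3 of the 6 genes. They are RefSeq sequences of build GRCm38.p6, 250 bases before the transcription start to 50 after it, on the strand of the gene and written 5′ to 3′, with exact matches in capitals. The Nodal promoter lies at chr10:61417722-61418021 (plus strand). Its capitals mark the Sox motif ACAAAG read on the opposite strand as CTTTGT at position -242 from the start. The Tdgf1 promoter lies at chr9:110946109-110946408 (minus strand). Its capitals mark GGGCGTGG, a GC-rich word of the kind Sp and Klf proteins bind, at -45 and -26. The Fgf4 promoter lies at chr7:144861136-144861435 (plus strand). Its capitals mark TATATATA, a TATA-like word, at -30.
Nodal: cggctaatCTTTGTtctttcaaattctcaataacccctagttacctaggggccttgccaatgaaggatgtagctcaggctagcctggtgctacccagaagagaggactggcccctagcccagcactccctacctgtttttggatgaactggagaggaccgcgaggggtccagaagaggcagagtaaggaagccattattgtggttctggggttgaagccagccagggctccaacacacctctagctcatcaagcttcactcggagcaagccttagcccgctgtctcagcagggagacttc
Tdgf1: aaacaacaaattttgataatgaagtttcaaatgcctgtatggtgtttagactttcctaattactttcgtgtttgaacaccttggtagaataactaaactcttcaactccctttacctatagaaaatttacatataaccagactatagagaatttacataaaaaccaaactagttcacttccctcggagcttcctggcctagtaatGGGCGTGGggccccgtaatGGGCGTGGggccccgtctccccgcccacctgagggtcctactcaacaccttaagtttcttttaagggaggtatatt
Fgf4: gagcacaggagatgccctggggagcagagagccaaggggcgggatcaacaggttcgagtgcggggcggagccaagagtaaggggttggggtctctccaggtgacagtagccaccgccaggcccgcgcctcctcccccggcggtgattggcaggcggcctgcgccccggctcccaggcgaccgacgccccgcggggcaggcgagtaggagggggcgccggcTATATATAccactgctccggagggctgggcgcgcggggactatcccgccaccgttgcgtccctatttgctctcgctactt

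The 3 promoters differed in composition, with 69.7% G and C in Fgf4, 54% in Nodal and 41.7% in Tdgf1, against a median of 52.7% over the 32851 promoters of the table. ACAAAG stood in 18.7% of those promoters on either strand, GGGCGTGG in 5.33% and TATATATA in 0.819%. GGGCGTGG and TATATATA were chosen after the sequences were seen. In Tdgf1 both matches belong to 1 run of 19 bases, gtaatgggcgtggggcccc, which is repeated head to tail from -50 and from -31. The other motifs searched, TGTGGATT for Foxh1, GTCTAGAC for Smad, ATTTGCAT for Pou factors and GGGTGTGG for Klf, had no match on either strand of these 3 windows. They stood in 0.855%, 0.213%, 1.74% and 3.56% of all promoters.

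In control cells the 6 genes were scarce in MEF and abundant in iPS and ES cells, and Lefty1 was already measured in every fibroblast library. Nodal averaged 0.0898 ± 0.0536 CPM in MEF shCtrl, 0.359 ± 0.0912 in D4 shCtrl, 0.505 ± 0.191 in D7 shCtrl, 96.5 ± 28.2 in iPS shCtrl and 153 ± 5.0 in ES siCtrl (SD, n = 3 except 2 in iPS). Gdf3 averaged 1.06 ± 0.103 CPM in D4 shCtrl, 3.65 ± 0.525 in D7 shCtrl, 120.5 ± 79.7 in iPS shCtrl and 123 ± 10.1 in ES siCtrl. Lefty1 started at 3.73 ± 0.197 CPM in MEF shCtrl and stood at 7.42 ± 1.05 in D4 shCtrl, 12.6 ± 1.08 in D7 shCtrl, 59.0 ± 22.6 in iPS shCtrl and 112 ± 2.47 in ES siCtrl. The control means of these 3 genes, and of Tdgf1 and Lefty2 below, rose in the order MEF, D4, D7, iPS and ES. That order does not make ES cells a later stage of reprogramming. Tdgf1 averaged 0.0230 ± 0.0246 CPM in MEF shCtrl, 0.116 ± 0.0271 in D4 shCtrl, 2.07 ± 1.2 in D7 shCtrl, 729 ± 130.5 in iPS shCtrl and 849 ± 61.1 in ES siCtrl. Lefty2 averaged 0.0282 ± 0.0302 CPM in MEF shCtrl, 0.196 ± 0.0894 in D4 shCtrl, 0.867 ± 0.0899 in D7 shCtrl, 58.1 ± 36.3 in iPS shCtrl and 87.8 ± 2.19 in ES siCtrl. Fgf4 averaged 0.319 ± 0.120 CPM in D4 shCtrl, 2.05 ± 1.40 in D7 shCtrl, 442 ± 4.11 in iPS shCtrl and 246 ± 18.9 in ES siCtrl, the one member with its highest control mean in iPS cells. The fibroblast level of Lefty1 was 3.32% of its ES siCtrl mean, while Lefty2 stood at 0.0321% and Tdgf1 at 0.0027% of theirs.

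Step by step, the control cells gained these genes early and in large part late. Between D4 shCtrl and MEF shCtrl the 3 members tested, Nodal, Gdf3 and Lefty1, all rose, and 33.3% of genes tested were higher there. Nodal and Gdf3 had at most 6 and 4 counts in a MEF shCtrl library. They passed the filter through D4 shCtrl, where they were high, so being tested nearly fixed their direction. At D7 shCtrl 5 of 6 rose over D4 shCtrl, where the share of all genes was 10.6%. The exception was Nodal, 0.442, 0.720 and 0.353 CPM in D7 shCtrl against 0.344, 0.276 and 0.457 CPM in D4 shCtrl, whose libraries overlapped (log2 difference 0.56, edgeR adjusted p = 0.305). Fgf4 rose by 2.75 on the log2 scale (adjusted p = 0.0132), but leaving out D4 shCtrl replicate 3 ended that call (adjusted p = 0.0662). Tdgf1 and Lefty2, with at most 5 and 14 counts in a D4 shCtrl library, passed the filter in this step through D7 shCtrl. So did Fgf4, with 8, 20 and 7 counts in D4 shCtrl, and this favours a rise for each of them. From D7 shCtrl to iPS shCtrl all 6 rose, beside 36.2% of genes higher, and all 6 were higher in ES siCtrl than in MEF shCtrl, beside 47.7%. In that last comparison every member but Lefty1 passed the filter through ES siCtrl alone. Fgf4 had no count in any MEF shCtrl library. Against the floor of 3 counts over that group, it was at least 10406-fold higher in ES siCtrl.

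**Figure D1:**
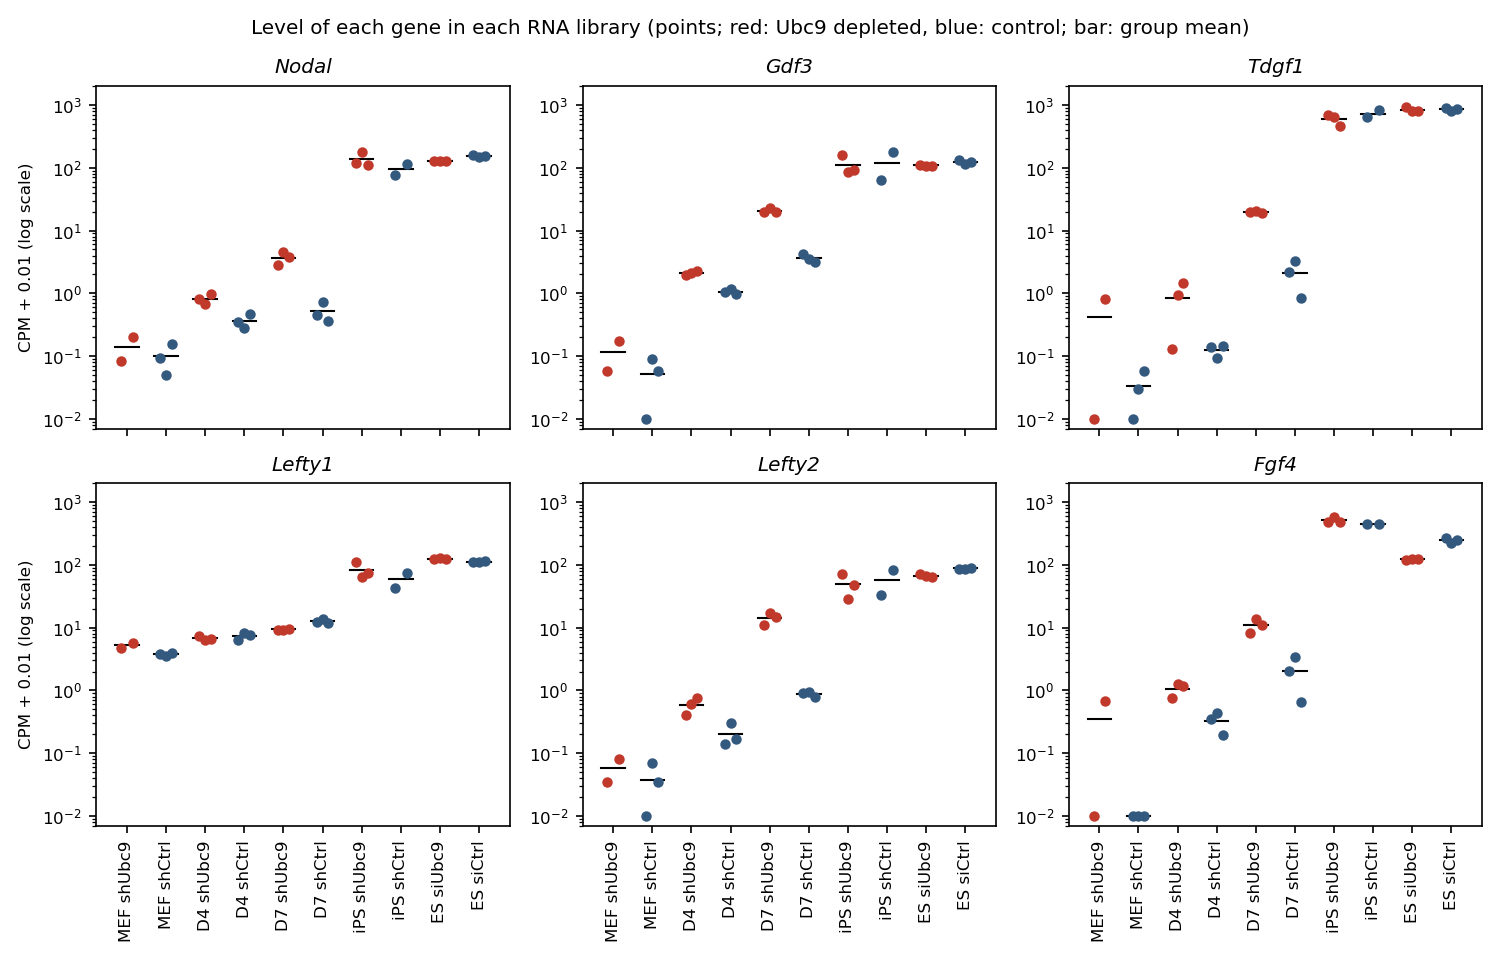
Level of each gene in CPM plus 0.01 (log axis) in every library of the 10 groups, with 1 panel a gene; red points are shUbc9 or siUbc9 libraries, blue points control libraries, and bars are group means. At D7 the red points of Nodal, Gdf3, Tdgf1, Lefty2 and Fgf4 all lie above the blue ones, and those of Lefty1 lie below; in ES cells the red points of Fgf4 lie below the blue ones, at 119 to 125 CPM in ES siUbc9 against 226 to 263 CPM in ES siCtrl. With library sizes alone the fall of Lefty1 at D7 was not called.

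Between the pluripotent controls, iPS cells had more Fgf4 and less Nodal and Lefty1 than ES cells. Fgf4 had 445 and 439 CPM in iPS shCtrl, against 263, 226 and 248 CPM in ES siCtrl (log2 difference 0.78, edgeR adjusted p = 0.00141). Nodal was lower in iPS shCtrl by a log2 difference of -0.74 (adjusted p = 0.0114) and Lefty1 by -1.0 (adjusted p = 0.00891). In this comparison 1 of 6 members was higher and 2 were lower, where 27.3% of genes tested were higher and 26% lower. Gdf3 was split between the iPS libraries, with 64.1 and 177 CPM in iPS shCtrl against 133, 113 and 124 CPM in ES siCtrl. Its log2 difference was -0.11 with both iPS libraries, 0.43 without iPS shCtrl replicate 1 and -0.94 without iPS shCtrl replicate 3. Without replicate 3 all 6 members were called, against 3 with it. The 8 fibroblast markers summed to 1130 and 425 CPM in iPS shCtrl replicates 1 and 3, against 39.3 to 53.2 CPM in ES siCtrl, and none was at 0. The 5 trophoblast markers summed to 102 and 75.0 CPM in those iPS libraries, against 24.8 to 26.0 CPM in ES siCtrl, again with none at 0. Most of these sums was Tfap2c, with 91.5 and 67.4 CPM in those iPS libraries and 20.2 to 21.35 CPM in ES siCtrl. Krt7 and Eomes were also higher in iPS shCtrl, while Cdx2 and Elf5 had at most 0.141 CPM there. The part of the fibroblast and trophoblast markers in these differences was not tested.

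With Ubc9 depleted at D7, 5 of these genes were far above their controls. The ligands Nodal, Gdf3 and Fgf4, the co-receptor Tdgf1 and the inhibitor Lefty2 all rose, by 4.98-fold to 16.2-fold, and Lefty1 fell in the main scaling. That is 5 of 6 members higher, where 27.3% of genes tested were higher, and 1 of 6 lower, where 26.3% were lower. The libraries of the D7 groups did not overlap for any of the 6, as for 60.6% of all genes tested. The members' median log2 change was 2.65, beside 0.01 over all genes tested.

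Nodal had 2.86, 4.47 and 3.75 CPM in D7 shUbc9, against 0.442, 0.720 and 0.353 CPM in D7 shCtrl. Each depleted library lay well above each control library, a rise of 7.06-fold (log2 2.82 ± 0.27 SE, edgeR adjusted p = 5.58e-05). Gdf3 had 19.5, 22.5 and 19.6 CPM in D7 shUbc9, against 4.21, 3.57 and 3.17 CPM in D7 shCtrl. Its replicates lay closer together than those of Nodal, and it rose by 5.54-fold (log2 2.47 ± 0.13, adjusted p = 2.48e-06). Tdgf1, which Nodal needs at the receptor, had 19.7, 20.3 and 19.1 CPM in D7 shUbc9, against 2.16, 3.21 and 0.823 CPM in D7 shCtrl. The depleted libraries were nearly alike and the controls spread, with D7 shCtrl replicate 3 lowest, and the rise was 8.94-fold (log2 3.16 ± 0.29, adjusted p = 4.2e-05). Fgf4 had 8.32, 13.52 and 10.8 CPM in D7 shUbc9, against 2.05, 3.45 and 0.646 CPM in D7 shCtrl. The same control library was lowest, and Fgf4 rose by 4.98-fold (log2 2.31 ± 0.38, adjusted p = 0.00108).

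The related inhibitors moved in opposite directions at D7, as far as the fall of Lefty1 holds across scalings. Lefty2 had 10.9, 17.3 and 14.7 CPM in D7 shUbc9, against 0.908, 0.929 and 0.764 CPM in D7 shCtrl. All control libraries stayed under 1 CPM, and the rise of 16.2-fold (log2 4.02 ± 0.21, edgeR adjusted p = 2.68e-06) was the largest among the 6. Lefty1 had 9.26, 9.20 and 9.63 CPM in D7 shUbc9, against 12.2, 13.8 and 11.8 CPM in D7 shCtrl. Its depleted libraries all lay lower, by 1.34-fold (log2 -0.42 ± 0.10, adjusted p = 0.00805). The fall depended on the scaling: with library sizes alone, which put the median of all genes at 0.21, the log2 change was -0.22 and was not called (adjusted p = 0.18). It was not called either with all libraries in 1 fit (log2 -0.43, adjusted p = 0.0771). The sources used here do not say how reads that match both Lefty genes were counted or whether strand was used. Counts of these paralogs, and of Lefty1, which the RefSeq annotation shows overlapped by the long noncoding RNA Gm39715, are uncertain to that extent. The same holds for Tdgf1 and its pseudogenes Tdgf1-ps1 and Tdgf1-ps2, and those 3 other loci are not analysed here.

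Even at their D7 shUbc9 level the genes were far below ES cells. Gdf3 and Lefty2 had reached 16.6% and 16.3% of their ES siCtrl means in D7 shUbc9, against 2.96% and 0.987% in D7 shCtrl. Nodal stood at 2.41% in D7 shUbc9 and 0.329% in D7 shCtrl. Tdgf1 stood at 2.32% in D7 shUbc9 and 0.243% in D7 shCtrl, and Fgf4 at 4.43% in D7 shUbc9 and 0.833% in D7 shCtrl. The 5 rising genes did not approach the ES level evenly, with Gdf3 and Lefty2 ahead of the other three.

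Markers of several other cell states moved at the same time. Of 8 pluripotency markers, 7 rose at D7, and their summed level was 91.5 to 119 CPM in D7 shUbc9 and 9.70 to 25.6 CPM in D7 shCtrl, with none of the 8 at 0 in either group. All 6 epithelial markers rose, with sums of 587 to 643 CPM in D7 shUbc9 and 143 to 217 CPM in D7 shCtrl, while 7 of 8 fibroblast markers fell and 1 rose, with sums of 16830 to 20980 CPM in D7 shUbc9 and 37450 to 51830 CPM in D7 shCtrl. Of the trophoblast markers 3 of 4 tested rose, with sums over the list of 5 of 21.8 to 29.5 CPM in D7 shUbc9 and 10.3 to 15.3 CPM in D7 shCtrl. Of 5 tested markers of primitive and definitive endoderm 3 fell. That list summed to 332 to 378 CPM in D7 shUbc9 and 849 to 879 CPM in D7 shCtrl, mostly from Pdgfra. Pdgfra alone had 324 to 373 CPM in D7 shUbc9, 831 to 862 CPM in D7 shCtrl and 350 to 380 CPM in MEF shCtrl. No marker of the trophoblast or endoderm list was at 0 in either D7 group. Primitive streak and mesoderm markers had 1 rise and 1 fall among 3 tested. That list summed to 3.35 to 5.53 CPM in D7 shUbc9 and 4.47 to 5.76 CPM in D7 shCtrl. No macrophage marker was called among 6 tested. The part of all these markers in the change of the 6 genes was not tested. In bulk RNA, more cells that express a gene and more RNA of it per cell cannot be told apart.

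**Figure D2:**
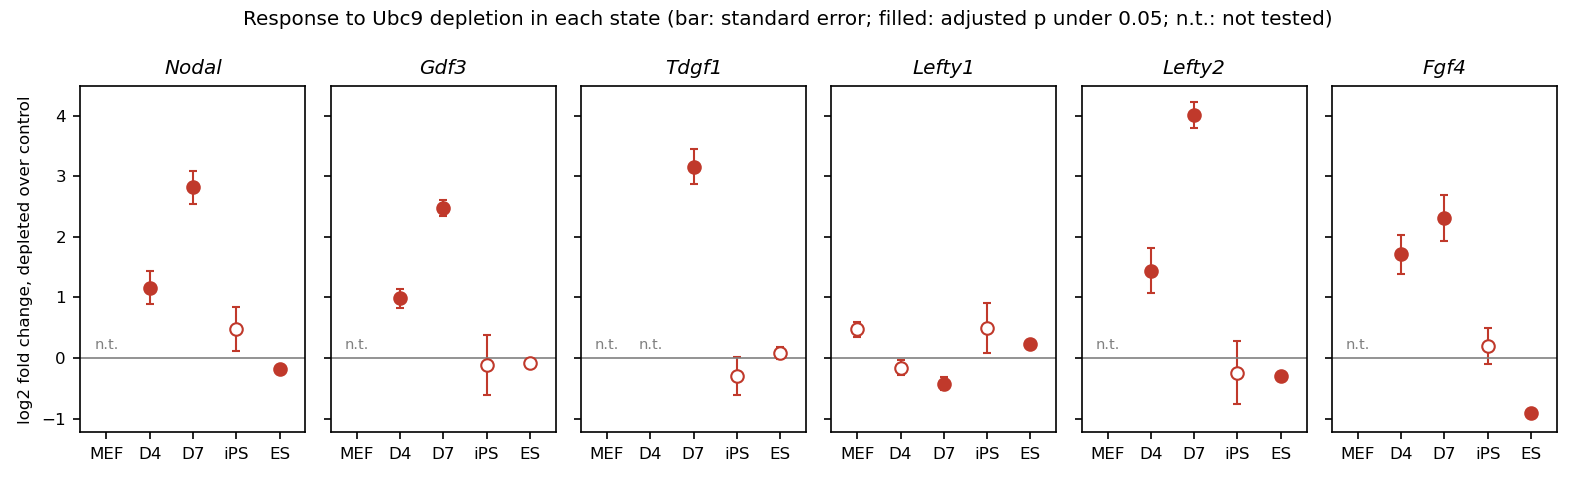
Log2 fold change of each gene with Ubc9 depletion, shUbc9 or siUbc9 over control, in the 5 cell states; bars are standard errors, filled points have an edgeR adjusted p under 0.05, and n.t. marks genes filtered out as too low. The changes at D7 span -0.42 for Lefty1, a call that library sizes alone did not give, to 4.02 for Lefty2, and in ES cells Fgf4 stands lowest at -0.92.

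At D4 the same comparison gave smaller rises at low levels. Nodal, Gdf3, Lefty2 and Fgf4 rose, 4 of the 5 members tested, where 27.2% of genes were higher, and Lefty1 did not pass the test. Nodal had 0.804, 0.671 and 0.956 CPM in D4 shUbc9, against 0.344, 0.276 and 0.457 CPM in D4 shCtrl (2.23-fold, edgeR adjusted p = 0.00577). Gdf3 had 1.92, 2.13 and 2.28 CPM in D4 shUbc9, against 1.03, 1.17 and 0.967 CPM in D4 shCtrl (1.98-fold, adjusted p = 0.00085). For both ligands every depleted library exceeded every control library. Lefty2 had 0.402, 0.587 and 0.759 CPM in D4 shUbc9, against 0.129, 0.297 and 0.161 CPM in D4 shCtrl (2.71-fold, adjusted p = 0.00981). It had 3, 14 and 6 counts in D4 shCtrl and passed the filter through D4 shUbc9, which favours a rise. Fgf4 had 0.757, 1.26 and 1.15 CPM in D4 shUbc9, against 0.344, 0.425 and 0.188 CPM in D4 shCtrl (3.27-fold, adjusted p = 0.00201). With 8, 20 and 7 counts in D4 shCtrl, it too passed the filter through D4 shUbc9, which favours a rise. Again no libraries overlapped, as for 61.7% of all genes tested. Lefty1 had 7.26, 6.24 and 6.61 CPM in D4 shUbc9, against 6.27, 8.32 and 7.66 CPM in D4 shCtrl, and its libraries overlapped (log2 -0.16 ± 0.12, adjusted p = 0.283). Tdgf1 was filtered out as too low, with 0.118, 0.939 and 1.43 CPM in D4 shUbc9 against 0.129, 0.0849 and 0.134 CPM in D4 shCtrl, so that D4 shUbc9 replicate 1 lay among the controls and replicates 2 and 3 above them.

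Those last replicates carry the trace of pluripotency transcripts. With D4 shUbc9 replicate 1 as the single depleted library, Gdf3 was still called (log2 0.86, edgeR adjusted p = 0.0306). Nodal (log2 1.18, adjusted p = 0.0503), Lefty2 (0.93, adjusted p = 0.214) and Fgf4 (1.23, adjusted p = 0.0653) kept their direction and were not called. Of the 8 pluripotency markers 3 of 4 tested rose at D4, with sums of 6.96 to 12.8 CPM in D4 shUbc9 and 3.05 to 3.63 CPM in D4 shCtrl and none at 0. All 8 fibroblast markers fell, with sums of 18480 to 20880 CPM in D4 shUbc9 and 27240 to 39070 CPM in D4 shCtrl, and all 6 macrophage markers rose, with sums of 61.8 to 62.6 CPM in D4 shUbc9 and 37.0 to 38.0 CPM in D4 shCtrl. Of 4 tested endoderm markers 3 fell, with sums of 388 to 400 CPM in D4 shUbc9 and 621 to 652 CPM in D4 shCtrl. Those sums were mostly Pdgfra, with 379.1 to 390.1 CPM in D4 shUbc9 and 603.5 to 632.7 CPM in D4 shCtrl. Of 4 tested trophoblast markers 2 rose and 1 fell, with sums of 5.94 to 7.31 CPM in D4 shUbc9 and 5.73 to 7.86 CPM in D4 shCtrl. Primitive streak and mesoderm markers had 1 rise and 2 falls among 3 tested. The part of these markers in the result was not tested.

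In MEF, without OKSM, 1 member was high enough to test. Lefty1 had 4.67 and 5.70 CPM in MEF shUbc9, against 3.79, 3.50 and 3.88 CPM in MEF shCtrl. Both depleted libraries were higher, as non-overlapping libraries were for 36.8% of genes, but the difference missed the threshold (log2 0.47 ± 0.12, edgeR adjusted p = 0.0539), where 6.04% of genes tested were called in either direction. It passed with library sizes alone (adjusted p = 0.0294) and with no filter on low counts (adjusted p = 0.0368). Nodal, Gdf3 and Lefty2 reached at most 0.192, 0.168 and 0.0719 CPM in any MEF library. Tdgf1 had 0 and 0.814 CPM in MEF shUbc9, against 0, 0.0200 and 0.0489 CPM in MEF shCtrl, and Fgf4 had 0 and 0.671 CPM in MEF shUbc9, against 0 in all MEF shCtrl libraries. Both were seen mainly in MEF shUbc9 replicate 3, the library with the trace of pluripotency transcripts. Of the macrophage markers 5 of 6 rose, with sums of 85.3 to 88.4 CPM in MEF shUbc9 and 47.5 to 64.1 CPM in MEF shCtrl and none at 0, and their part in the Lefty1 values was not tested.

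In iPS cells none of the 6 members passed the test, and neither did any of the 17294 genes tested by edgeR (0%), while 246 genes had an unadjusted p under 0.05 and DESeq2 called 4 genes higher and 6 lower. All RNA libraries in 1 fit called 597 genes higher and 214 lower, and the replicate block 64 and 17, with none of the 6 among them. Nodal had 118, 178 and 112 CPM in iPS shUbc9, against 76.6 and 116 CPM in iPS shCtrl (log2 0.48 ± 0.37). Tdgf1 had 682, 650 and 469 CPM in iPS shUbc9, against 637 and 822 CPM in iPS shCtrl (log2 -0.30 ± 0.32). Fgf4 had 481, 582 and 477 CPM in iPS shUbc9, against 445 and 439 CPM in iPS shCtrl (log2 0.19 ± 0.30). Only for Fgf4 did the libraries not overlap, as for 12.5% of genes tested, and the wide standard errors leave room for changes of either sign in all 6. Gdf3 spread widely within the groups, with 158, 84.8 and 90.7 CPM in iPS shUbc9 against 64.1 and 177 CPM in iPS shCtrl (log2 -0.11 ± 0.50). Lefty2 had 70.6, 28.7 and 47.9 CPM in iPS shUbc9, against 32.5 and 83.8 CPM in iPS shCtrl (log2 -0.24 ± 0.52). Lefty1 had 112, 64.6 and 74.1 CPM in iPS shUbc9, against 43.1 and 75.0 CPM in iPS shCtrl (log2 0.49 ± 0.41). For each of these 3 genes the range within either hairpin exceeded the difference of the group means.

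In ES cells Ubc9 depletion went with a fall of Fgf4 and with small, opposite changes of the Lefty genes. Fgf4 had 119, 125 and 123 CPM in ES siUbc9, against 263, 226 and 248 CPM in ES siCtrl. The groups stood far apart and the depleted libraries lay within a narrow band, a fall of 1.89-fold (log2 -0.92 ± 0.05, edgeR adjusted p = 2.53e-06). Lefty1 had 122, 127 and 125 CPM in ES siUbc9, against 110.2, 112 and 115 CPM in ES siCtrl, a rise of 1.18-fold (log2 0.24 ± 0.04, adjusted p = 0.00257). Lefty2 had 72.5, 65.3 and 64.6 CPM in ES siUbc9, against 86.1, 87.1 and 90.3 CPM in ES siCtrl (log2 -0.30 ± 0.07, adjusted p = 0.00738). Neither Lefty gene had overlapping libraries. Nodal had 129, 127 and 126 CPM in ES siUbc9, against 158, 148 and 154 CPM in ES siCtrl (log2 -0.18 ± 0.05, adjusted p = 0.0137). Its fall was the smallest called, and the call was lost without ES siCtrl replicate 3 (adjusted p = 0.0595), ES siUbc9 replicate 2 (0.0729) or ES siUbc9 replicate 3 (0.0762). Gdf3 had 112, 108 and 108 CPM in ES siUbc9, against 133, 113 and 124 CPM in ES siCtrl (log2 -0.08 ± 0.06, adjusted p = 0.310), and Tdgf1 had 937, 788 and 800.2 CPM in ES siUbc9, against 908, 786 and 854 CPM in ES siCtrl (log2 0.08 ± 0.09, adjusted p = 0.537). Neither passed, although the Gdf3 libraries did not overlap, as for 52.6% of all genes. In all 1 of 6 members rose and 3 fell, where 21.3% of genes tested were higher and 17.8% lower.

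In a single fit over all RNA libraries, with 1 spread shared by all groups, none of the 6 was called in ES cells by edgeR. Fgf4 then had a log2 change of -1.01 (adjusted p = 0.0761). Of the 8 pluripotency markers 6 fell in ES siUbc9, with sums of 1844 to 1993 CPM in ES siUbc9 and 2505 to 2617 CPM in ES siCtrl and none at 0, and 4 of 6 epithelial markers fell and 1 rose. Of 6 endoderm markers 3 fell, with sums of 16.5 to 18.4 CPM in ES siUbc9 and 22.1 to 24.7 CPM in ES siCtrl. Pdgfra had 10.1 to 10.6 CPM in ES siUbc9 and 11.8 to 12.6 CPM in ES siCtrl. Of 4 tested trophoblast markers 1 fell, with sums of 15.4 to 16.2 CPM in ES siUbc9 and 24.8 to 26.0 CPM in ES siCtrl. Most of the trophoblast sums was Tfap2c, with 11.2 to 11.7 CPM in ES siUbc9 and 20.2 to 21.35 CPM in ES siCtrl. Primitive streak and mesoderm markers had 1 rise and 0 falls among 4 tested. The part of all these markers in the change of Fgf4 was not tested.

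The responses to depletion were then compared between states within 1 fit each, as the log2 change in one state minus that in the other. The tests share groups with the comparisons above and with each other. In ES cells all 6 responses differed from those at D7, where 20.1% of genes tested differed upward and 24.3% downward. Lefty2 differed by -4.37 ± 0.21, Fgf4 by -3.26 ± 0.33, Tdgf1 by -3.13 ± 0.27, Nodal by -3.06 ± 0.23 and Gdf3 by -2.61 ± 0.13 on the log2 scale (SE, edgeR adjusted p of 2.11e-06 or less). Lefty1 differed in the other direction, by 0.60 ± 0.09 (adjusted p = 0.000133). All 6 calls held with DESeq2, with its size factors, with library sizes alone, with no filter on low counts, with the replicate block and without any single library. A fit of all RNA libraries at once was not run for this contrast. The state, the hairpin or siRNA and the duration of depletion cannot be told apart in this contrast.

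From D4 to D7 the responses of Lefty2, Nodal and Gdf3 grew, 3 of 6 members, where 6.04% of genes tested differed upward. Lefty2 grew by 2.59 ± 0.51 (edgeR adjusted p = 0.00515), Nodal by 1.67 ± 0.43 (adjusted p = 0.0223) and Gdf3 by 1.5 ± 0.19 (adjusted p = 0.000339). Nodal lost the call without D4 shCtrl replicate 3 (1.46, adjusted p = 0.0872), D4 shUbc9 replicate 2 (1.54, 0.0518) or D7 shCtrl replicate 1 (1.55, 0.0638), and Lefty2 without D4 shCtrl replicate 2 (2.10, 0.0826). With D4 shUbc9 replicate 1 as the single depleted D4 library, Gdf3 (1.63, adjusted p = 0.00481) and Lefty2 (3.11, 0.0127) were called and Nodal was not (1.65, 0.104). The differences of Fgf4 (0.61), Tdgf1 (0.33) and Lefty1 (-0.25) were not called, and in that fit that of Tdgf1 was 3.08 (adjusted p = 0.165). Between D4 and MEF, Lefty1 differed by -0.65 ± 0.18 (adjusted p = 0.0124), 1 of 6 members, where 19.6% of genes differed downward. That call was lost without MEF shUbc9 replicate 3 (-0.47, adjusted p = 0.109) and without both D4 shUbc9 replicates 2 and 3 (-0.50, adjusted p = 0.105).

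The D7 responses of Nodal, Gdf3, Tdgf1 and Lefty2 did not pass the test in iPS cells, and the differences, iPS minus D7, were called for these 4 of 6 members, where 1.27% of genes tested differed downward. They were -2.39 ± 0.45 for Nodal, -2.64 ± 0.53 for Gdf3, -3.53 ± 0.53 for Tdgf1 and -4.31 ± 0.60 for Lefty2 (edgeR adjusted p of 0.0314 or less). These calls were fragile. All 4 were lost without D7 shCtrl replicate 1 or without D7 shUbc9 replicate 3, and all but that of Lefty2 without iPS shCtrl replicate 3. Nodal and Gdf3 were also lost without D7 shCtrl replicate 3 or D7 shUbc9 replicate 1 or 2, and Gdf3 without D7 shCtrl replicate 2 or iPS shUbc9 replicate 3. Over all single libraries left out, the difference ran from -2.76 to -2.09 for Nodal, -3.19 to -1.77 for Gdf3, -4.00 to -3.17 for Tdgf1 and -4.82 to -3.51 for Lefty2. Between ES and iPS cells the response of Fgf4 differed by -1.08 ± 0.21 (adjusted p = 0.0357), 1 of 6 members, where 0.323% of genes differed downward; leaving out any single ES library or either iPS shCtrl library ended that call (-1.12 to -1.04, adjusted p of 0.0814 to 0.134).

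In depleted cells taken alone all 6 genes rose between D4 and D7, where 14.7% of genes did. Tdgf1, with 5, 56 and 51 counts in D4 shUbc9 replicates 1, 2 and 3, passed the filter through D7 shUbc9, which favours a rise. Lefty2 rose by 4.68, Tdgf1 by 4.63, Fgf4 by 3.40, Gdf3 by 3.33, Nodal by 2.26 and Lefty1 by 0.54 on the log2 scale (edgeR adjusted p of 0.00471 or less). With D4 shUbc9 replicate 1 as the single depleted D4 library, 5 of the 6 were called, Tdgf1 rose by 7.39, and Lefty1 was not called (log2 0.42, adjusted p = 0.178). In control cells over the same interval the rises were 2.05 for Lefty2, 4.25 for Tdgf1, 2.75 for Fgf4, 1.80 for Gdf3 and 0.76 for Lefty1. Lefty1 was the one member whose D4 to D7 rise was not larger in value in depleted cells.

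The share of Lefty1 in the counts of both Lefty genes differed between the hairpins at D7. It is a share of reads and is not corrected for transcript length. In MEF it averaged 99.1% ± 0.509 in MEF shUbc9 and 99.2% ± 0.855 in MEF shCtrl (SD), with groups that overlapped. At D7 it was 45.9%, 34.7% and 39.6% in D7 shUbc9, against 93.1%, 93.7% and 93.9% in D7 shCtrl. The D7 shUbc9 libraries lay below every other library, iPS and ES cells included, of which iPS shCtrl replicate 3 came nearest at 47.2%. The difference at D7 was -53.5 percentage points, with no overlap, and the exact two-sided permutation p of 0.1 is the smallest that 3 against 3 libraries can give. At D4 the share was 94.8%, 91.4% and 89.7% in D4 shUbc9, against 98.0%, 96.6% and 97.9% in D4 shCtrl (difference -5.55 points, exact permutation p = 0.1), and the D4 shUbc9 library nearest the controls, at 94.8%, is the one without the trace of pluripotency transcripts. In ES cells it was higher with depletion, 62.6%, 66.1% and 65.9% in ES siUbc9 against 56.1%, 56.2% and 56.0% in ES siCtrl (difference 8.73 points, exact permutation p = 0.1). iPS shUbc9 had 61.4%, 69.2% and 60.8%, against 57.0% and 47.2% in iPS shCtrl (difference 11.7 points, exact permutation p = 0.1, the smallest that 3 against 2 allows). Over the 5 comparisons the adjusted value is 0.125 for each of these 4 exact tests, and the exact p in MEF was 0.9. The shares carry the uncertainty of reads that match both genes.

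**Figure D3:**
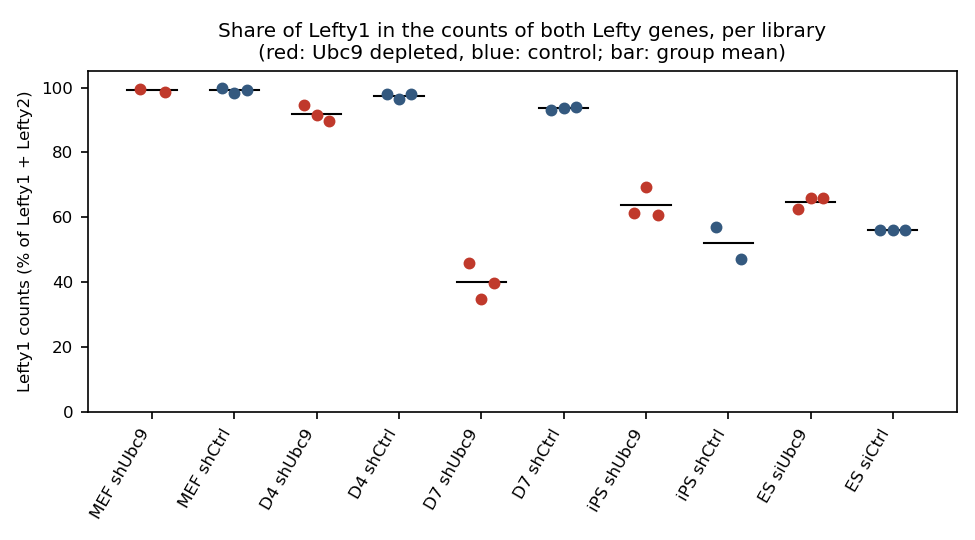
Lefty1 as a percent of the Lefty1 and Lefty2 counts together, 1 point a library, in the 10 groups; red points are shUbc9 or siUbc9 libraries, blue points controls. The D7 shUbc9 libraries sit at 34.7% to 45.9%, under D7 shCtrl at 93.1% to 93.9%, while in iPS and ES cells the red points lie above the blue.

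Other genes of the pathway did not move as a block with the 6. A list of 33 further Nodal pathway genes, ligands of related action, receptors, Smads, inhibitors and embryonic targets, has 32 in the table. At D7, 25 were tested, 6 rose and 11 fell, beside 27.3% of all genes higher and 26.3% lower, with a median log2 change of -0.18 beside 0.01 over all genes. Foxh1, the DNA-binding partner of Smads in Nodal signalling, averaged 3.23 ± 0.632 CPM in D7 shUbc9 and 0.290 ± 0.226 CPM in D7 shCtrl (log2 3.30, edgeR adjusted p = 0.000113). Dact2, an inhibitor of Nodal signalling in zebrafish, rose to 26.1 CPM in D7 shUbc9, against 9.78 CPM in D7 shCtrl, and Inhbb, an activin subunit, to 133 CPM in D7 shUbc9, against 76.8 CPM in D7 shCtrl. The falls included Inhba, the other activin subunit, with 14.3 CPM in D7 shUbc9 and 28.8 CPM in D7 shCtrl. They also included the Nodal receptor Acvr1b, with 31.4 CPM in D7 shUbc9 and 59.3 CPM in D7 shCtrl.

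At D4 the list again had 6 rises and 11 falls, of 24 tested, where 4622 of 17001 genes were higher and 4429 lower. At both times its share of rises was near that of all genes, and its share of falls was larger than that of all genes. That excess of falls was not tested. Inhbb averaged 72.6 CPM in D4 shUbc9 and 48.5 CPM in D4 shCtrl, and Nomo1, a part of a complex known to restrain Nodal signals in zebrafish, 173 CPM in D4 shUbc9 and 117 CPM in D4 shCtrl. Gsc, a target in the early embryo, fell to 1.29 CPM in D4 shUbc9, against 2.77 CPM in D4 shCtrl, and Inhba fell to 13.4 CPM in D4 shUbc9, against 24.1 CPM in D4 shCtrl. In MEF 1 of 23 rose, Inhbb with 84.0 CPM in MEF shUbc9 and 45.5 CPM in MEF shCtrl, and 3 fell, Inhba, Bmp4 and Gsc, where 624 of 16287 genes were higher and 360 lower. In ES cells 2 of 27 rose and 6 fell, beside 21.3% of all genes higher and 17.8% lower. T (brachyury), a mesoderm regulator, rose to 1.17 CPM in ES siUbc9, against 0.339 CPM in ES siCtrl, while Inhbb fell to 3.68 CPM in ES siUbc9, against 11.5 CPM in ES siCtrl, and Bmp4 to 4.27 CPM in ES siUbc9, against 7.63 CPM in ES siCtrl. In iPS cells edgeR called none of 27. Inhbb was thus called higher with depletion in MEF, D4 and D7 and lower in ES cells.

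For the FGF and ERK list of 30 genes, 25 were tested at D7, with 7 rises and 8 falls, near the 27.3% higher and 26.3% lower of all genes, and a median of -0.18. The rises included feedback genes and targets of ERK signalling. Etv4, an ETS factor, averaged 22.4 CPM in D7 shUbc9 and 4.21 CPM in D7 shCtrl (log2 2.39, edgeR adjusted p = 8.31e-06). Dusp6, an ERK phosphatase, averaged 49.9 CPM in D7 shUbc9 and 17.8 CPM in D7 shCtrl, and the phosphatase Dusp4 36.1 CPM in D7 shUbc9 and 14.6 CPM in D7 shCtrl. Etv4, Dusp4 and Dusp6 also had the largest rises of the list at D4, with Etv4 at 15.3 CPM in D4 shUbc9 and 5.75 CPM in D4 shCtrl. At D4 7 of 26 rose and 11 fell, where 4622 of 17001 genes were higher and 4429 lower. The share of falls was thus larger in the list than in all genes, a difference that was not tested. The FGF receptor Fgfr1 fell at D7 to 119 CPM in D7 shUbc9, against 259 CPM in D7 shCtrl, and the adaptor Frs2 to 31.3 CPM in D7 shUbc9, against 57.9 CPM in D7 shCtrl. Fgf10, a ligand of mesenchymal cells, fell to 3.14 CPM in D7 shUbc9, against 11.1 CPM in D7 shCtrl.

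In ES cells 13 of 29 genes of that list fell and 4 rose, where 17.8% of all genes were lower and 21.3% higher, with a median of -0.26. Fgf5, a ligand that marks the primed state, fell to 2.85 CPM in ES siUbc9, against 8.92 CPM in ES siCtrl, and Fgf3 to 1.16 CPM in ES siUbc9, against 2.14 CPM in ES siCtrl. Dusp4 rose to 38.5 CPM in ES siUbc9, against 26.9 CPM in ES siCtrl. In MEF 2 of 26 rose and 2 fell, where 6.04% of all genes were called, with Fgf7 at 104 CPM in MEF shUbc9 and 68.3 CPM in MEF shCtrl, and in iPS cells edgeR called none of 28.

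**Figure D4:**
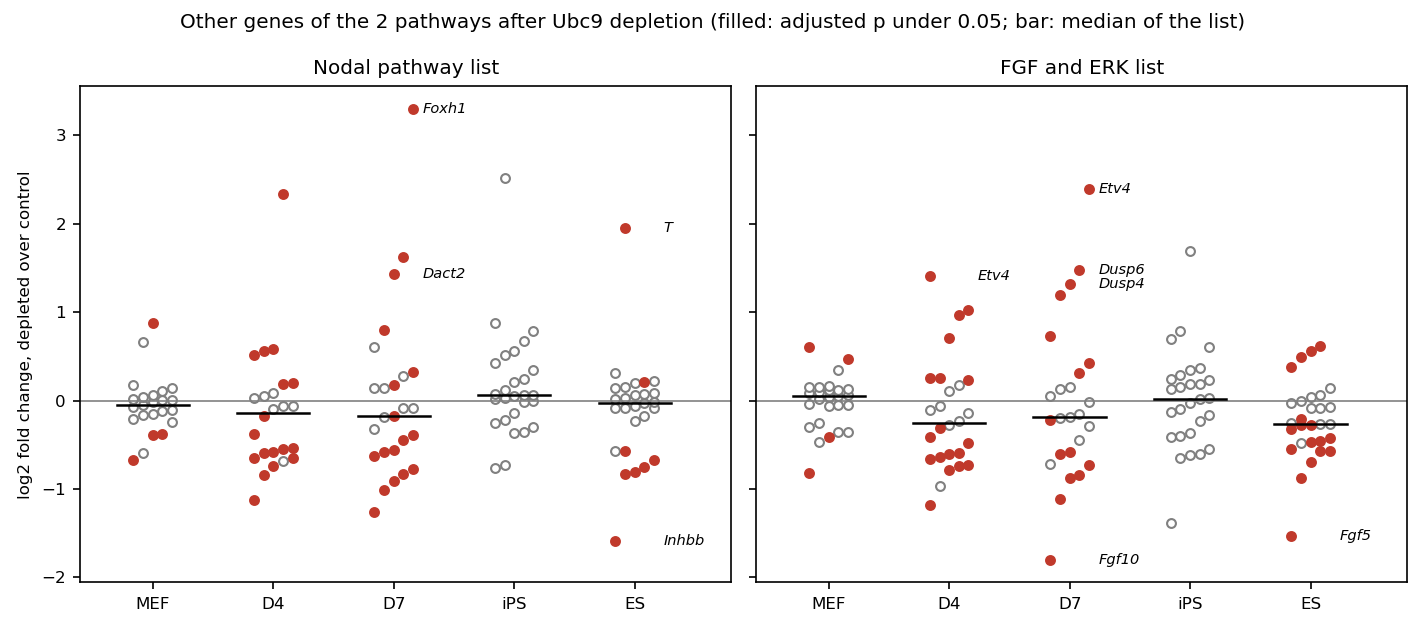
Log2 fold change with Ubc9 depletion, shUbc9 or siUbc9 over control, of each tested gene of the Nodal pathway list and the FGF and ERK list in the 5 cell states; filled points have an edgeR adjusted p under 0.05 and bars are list medians. Rises and falls stand on both sides of 0 in each state with calls, with Foxh1 at 3.30 and Etv4 at 2.39 at D7.

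Likeness of level was described by the Pearson correlation of log2 CPM over the 10 group means, and genes among the 3 nearest are named for each member. The points share libraries and the contrast between fibroblast and pluripotent groups. For Nodal they were Zfp819 (r = 0.9965) and Nlrp12 (0.9959), and for Gdf3 Tdh (0.9978), Ocln (0.9887) and Fcho1 (0.9886). For Tdgf1 they were Sall4 (0.9965), Morc1 (0.9946) and Nr5a2 (0.9941), and for Lefty2 Epcam (0.9937), Morc1 (0.9935) and Tex21 (0.9923). Lefty1 was nearest to Slc7a9 (0.9968), AI467606 (0.9946) and Hnf4a (0.9936), and Fgf4 to Fbxo15 (0.9951) and Rasal1 (0.995). Among the members themselves r ran from 0.9155 for Gdf3 with Lefty1 to 0.9867 for Lefty2 with Tdgf1.

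The genes next to the members on the chromosome, a set chosen after values had been seen, moved in both directions. Of 15 neighbours tested at D7, 5 rose and 2 fell, where 27.3% of all genes were higher and 26.3% lower. Beside Lefty1, Tmem63a fell at D7 by 0.72 on the log2 scale (edgeR adjusted p = 4.94e-05). Near Gdf3, the pluripotency regulator Nanog averaged 9.85 CPM in D7 shUbc9 and 1.71 CPM in D7 shCtrl, and fell in ES cells, to 46.2 CPM in ES siUbc9 against 95.6 CPM in ES siCtrl. Dppa3, a gene of the same cluster and a marker of naive and germ cells, rose to 24.05 CPM in ES siUbc9, against 5.29 CPM in ES siCtrl. Near Fgf4, the related ligand Fgf15 fell to 25.9 CPM in ES siUbc9, against 40.9 CPM in ES siCtrl (log2 -0.57, adjusted p = 4.02e-05). In ES cells 3 of 19 neighbours rose and 8 fell, beside 21.3% of all genes higher and 17.8% lower.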

How the data were processed

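RNA was sequenced in 28 libraries. The authors deposited 1 table of raw read counts, which per the file headers has 1 column per library and a row for each gene (Entrez identifier) and each repeat family; 24191 of 26301 genes matched a symbol, and the 799 repeat families (7.22% to 24.8% of a library's counts) were left out of library sizes and tests. Per the submitters' processing notes, STAR 2.5.0a, featureCounts and DESeq2 were among the tools. The sources used here do not say how reads with several matches, or strand, were handled. The deposited peak lists were not used here, because their build, mm9, came without an annotation.

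CPM per library were computed from the counts on TMM sizes of all 28 libraries. Each comparison was a two-sided edgeR 4.0.16 quasi-likelihood test (limma 3.58.1, R 4.3.3) on its own groups, with TMM scaling, genes kept by filterByExpr with a minimum count of 10, and Benjamini-Hochberg adjustment over all genes tested; a gene was called at an adjusted p under 0.05. Differences between responses were interaction contrasts over 4 groups. Each standard error of a log2 change was derived from the test, as the absolute log2 change over the square root of its F statistic. Floors cover counting error only. The procedure was also run on simulated counts with 200 changed genes. Those counts were drawn from the kind of model that the test assumes, so the run does not check that model.

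All 6 members are named in every comparison. From the other lists, up to 3 called rises and 3 called falls of the largest change were eligible, with at least 1 CPM in a group. Genes most like a member were the 3 of highest correlation. Some genes that these rules name are not reported here. Members and lists were chosen with earlier results of these data known. Of the Nodal pathway list, Tdgf1b was not found in the table. Alternatives were DESeq2 1.42.0, its size factors, library sizes alone, no filter, the replicate number as a block, all libraries in 1 fit, and leaving out each library. Deviations of libraries with the same number correlated between -0.469 and 0.209, so the numbers were not taken as pairs.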

Additional observations from a re-analysis of the deposited data

Results flagged for a closer look

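The response to Ubc9 depletion, as a log2 change, was tested for a difference between states in 5 pairs of states, and 15 differences of the 6 genes were called (edgeR adjusted p under 0.05). Between ES cells and D7 the difference was -3.06 for Nodal, -2.61 for Gdf3, -3.13 for Tdgf1, 0.60 for Lefty1, -4.37 for Lefty2 and -3.26 for Fgf4. Between D7 and D4 it was 1.67 for Nodal, 1.5 for Gdf3 and 2.59 for Lefty2. Between D4 and MEF it was -0.65 for Lefty1.

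Between iPS cells and D7 it was -2.39 for Nodal, -2.64 for Gdf3, -3.53 for Tdgf1 and -4.31 for Lefty2. Between ES and iPS cells Fgf4 differed by -1.08. Which of state, hairpin or siRNA, and depth of depletion goes with these differences cannot be told apart. No group has 4 or more libraries, so single libraries were not screened as outliers.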

How the results depend on the processing

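Most results kept their direction and their side of the threshold. The changes of the main comparisons follow, the other losses stand beside their results, and where no construction is named the cause was not tested. In MEF, Lefty1 passed with library sizes alone (log2 0.46, 1 member called) and with no filter (0.47, 2 members called, the other Fgf4). Without single libraries 0 to 2 members were called; the 2, Tdgf1 and Fgf4, came without MEF shUbc9 replicate 1, which leaves replicate 3, the library with the trace, as the lone depleted one. At D4, with D4 shUbc9 replicates 2 and 3 left out, which leaves a single depleted library, 1 member was called and Nodal (1.18), Lefty2 (0.93) and Fgf4 (1.23) were not. At D7, Lefty1 was not called with library sizes alone (-0.22) or with all libraries in 1 fit (-0.43); library sizes alone called 6776 genes higher and 2701 lower, against 4695 and 4528. In ES cells, all libraries in 1 fit called 0 members by edgeR, with Nodal at -0.27, Lefty1 at 0.15, Lefty2 at -0.38 and Fgf4 at -1.01, and Nodal ran between -0.23 and -0.16 without single libraries.

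Between D4 shCtrl and MEF shCtrl, 5 members were called with no filter. Between iPS shCtrl and ES siCtrl, 3 to 6 members were called without single libraries, and Gdf3 ran between -0.94 and 0.43. For differences between responses, leaving out single libraries gave 0 to 2 members for D4 and MEF (the 2 from the same lone library), 0 to 5 for iPS cells and D7, and 0 to 1 for ES and iPS cells. The D7 difference from iPS cells had 0 members without D7 shCtrl replicate 1 or D7 shUbc9 replicate 3, and 1 without iPS shCtrl replicate 3; Fgf4 was called too with DESeq2 (-2.06, adjusted p = 0.0274) and without iPS shUbc9 replicate 2 (-2.22, edgeR adjusted p = 0.0233). Without D4 shUbc9 replicates 2 and 3, D4 and MEF had 0 members, D7 minus D4 lost Nodal (1.65) and the D4 to D7 rise in depleted cells lost Lefty1 (0.42). The Fgf4 difference between ES and iPS cells was lost in 8 of 11 such fits (adjusted p up to 0.134), without any single ES library or either iPS shCtrl library. It was also lost with no filter and with the replicate block, with 0 members called in each.

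The replicate number as a block, although the numbers did not pair the libraries, also called Lefty2 between iPS shCtrl and ES siCtrl (-0.81, adjusted p = 0.00671), and it called 3 members between the iPS and D7 responses and 81 genes with depletion in iPS cells, where all libraries in 1 fit called 597 higher and 214 lower, against 0.

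Depth limits the MEF and D4 values, where several genes had under 10 counts a library.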
